A study of Mus musculus with 18 samples.

Results

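The open chromatin around the 9 genes of MHC class II antigen presentation (*H2-Aa*, *H2-Ab1*, *H2-Eb1*, *H2-DMa*, *H2-DMb1*, *H2-Oa*, *H2-Ob*, *Cd74*, and *Ciita*) was examined in liver macrophages (LMs). A region belonged to a gene when its midpoint lay in the gene body or within 10 kb of either end. Of the 69499 regions in the deposited list, 39 met this rule. ATAC-Seq, in which a transposase cuts accessible DNA, was run on 50000 isolated LMs per reaction from male C57BL/6J mice fed a high-fat, high-sucrose diet (HFHSD) for 4 weeks. The 18 libraries came from 3 genotypes, control, *Reverb*-hDKO, and *Reverb/Scap*-hTKO, each with 3 replicates at zeitgeber time 10 (ZT10, late in the light phase) and 3 at ZT22 (late in the dark phase). *Reverb*-hDKO mice carried floxed *Rev-erb*α and *Rev-erb*β, and *Reverb/Scap*-hTKO mice carried floxed *Scap* as well. The alleles were deleted with an adeno-associated virus that expressed CRE from the TBG promoter (AAV-TBG-CRE), which is active in hepatocytes, and controls received AAV-TBG-GFP. The deletion was therefore aimed at hepatocytes and not at the LMs assayed. Which floxed line gave the control mice is not stated in the sources used here.

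The list gave 1 set of positions for all 18 libraries, with no count, signal, or score. Genotypes, time points, and replicates could not be compared, sequencing depth was unknown, and a listed region need not have been open in every library. All values below are descriptions of position and sequence, without a test, and "open" means only that a region was listed. Replicates had been merged before peaks were called. A region that is not listed may have missed the threshold of a peak caller that is not given in the sources used here.

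MHC class II molecules are dimers of an α and a β chain that display peptides from the endocytic pathway to CD4+ T cells. The invariant chain CD74 holds new dimers until they reach endosomes, H2-DM exchanges the remnant of CD74 for antigenic peptide, and H2-DO restrains H2-DM. Full expression of most class II genes depends on CIITA, a coactivator that does not bind DNA itself but is recruited by factors on a conserved promoter module. In this module the X box is bound by the RFX complex and by CREB family members, and the Y box, an inverted CCAAT sequence, is bound by NF-Y. Professional antigen-presenting cells such as B cells, dendritic cells, and macrophages express class II genes, and IFN-γ induces them in many other cells.

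The sequences of this module are shown first. The rule that chose the regions used no sequence. The module is, however, a known feature of class II promoters, so that matches near these genes need not depend on open chromatin. An X core was searched as GNAACNGAT (N, any base) and a Y box as ATTGG. A pair was an X core followed by a Y box 15 to 40 bp further on the same strand, and both strands were read. Within 300 bp centered on the region's midpoint, 2 of the 39 regions held an exact pair, against 0.0548% of 69362 regions on chromosomes 1 to 19, X, and Y. With 1 mismatch allowed among the fixed letters of the X core, 8 of 39 regions (20.5%) held a pair, against 1.05% of all regions. The 7 pairs on chromosome 17 follow in the direction from X to Y, on mm9, with the X core and the Y box in capitals. The H2-DMa and H2-DMb1 pairs lie in annotated 5′ UTRs, so that only their X cores are shown, with 10 bp on both sides.
H2-Eb1, chr17:34442711-34442767, plus strand: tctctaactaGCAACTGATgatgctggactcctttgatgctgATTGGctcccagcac
H2-Ab1, chr17:34400085-34400141, plus strand: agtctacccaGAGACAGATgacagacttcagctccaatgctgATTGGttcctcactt
H2-Ob, chr17:34375753-34375807, plus strand: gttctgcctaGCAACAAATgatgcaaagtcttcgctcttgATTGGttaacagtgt
H2-DMb1, chr17:34290032-34290060, plus strand: ggtttacctaGTAACTGATgatgctaggc
H2-DMa, chr17:34272449-34272477, plus strand: cttctcctcaGCGACTGATgatgttaaac
Upstream of H2-Eb1, chr17:34441865-34441922, minus strand: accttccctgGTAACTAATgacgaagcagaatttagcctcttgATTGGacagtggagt
Upstream of H2-Ab1, chr17:34398620-34398677, minus strand: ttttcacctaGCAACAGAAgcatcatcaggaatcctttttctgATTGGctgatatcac

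The X core was exact at *H2-Eb1* and *H2-DMb1* and had 1 mismatch at the other sites. The spacing between X and Y was narrow, with 21 bp at *H2-Ob*, 23 bp at *H2-Eb1* and *H2-Ab1*, 24 bp at *H2-DMa*, *H2-DMb1*, and both upstream sites, and 25 bp at the eighth pair, in an intron of *Cd74*. The search allowed any gap from 15 to 40 bp. The pairs closest to the first bases of *H2-Eb1*, *H2-Ab1*, *H2-Ob*, *H2-DMb1*, and *H2-DMa* ran in the direction of the gene, and the upstream pairs and the *Cd74* intron pair ran in the opposite direction. Of the 8 pairs, 7 lay wholly inside the listed region. At *H2-Ob* only the end of the pair did, since its X core lay before the region's edge. The genes of the α and β chains are paralogs, so that their sites may not be independent of each other, and the sites were not aligned here.

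**Figure D1:**
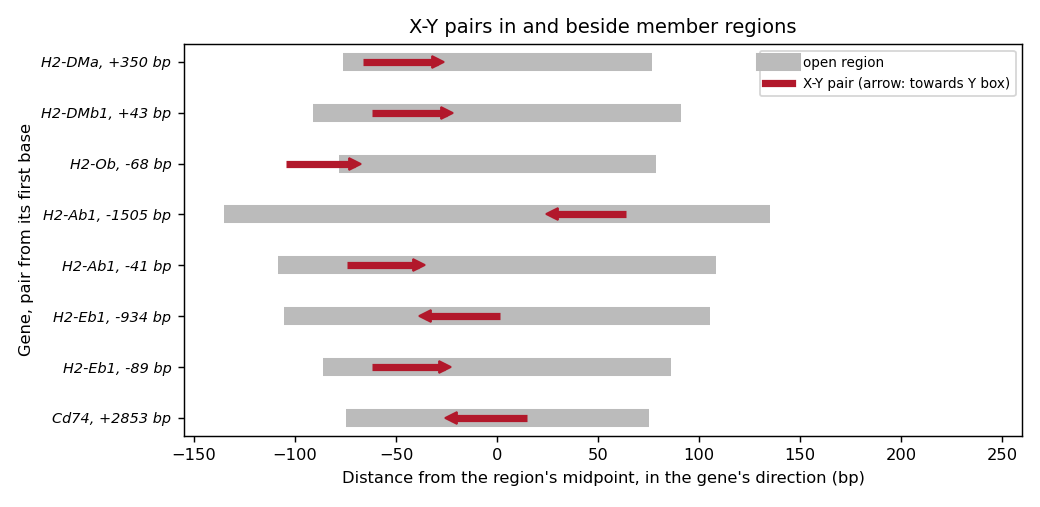
X-Y pairs with up to 1 mismatch in the X core (red, arrow towards the Y box) drawn over the open region that holds each (gray), in bp from the region's midpoint in the direction of the gene. Of the 8 pairs, 7 lie inside the region, and the *H2-Ob* pair reaches past its edge.

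Pairs were counted by position as well. Among the 11 member regions within 1000 bp of a coding start, 6 held a pair (54.5%), against 1.02% of all 19627 regions at coding starts. Among the 28 member regions further away, 2 held a pair (7.14%), against 1.07% of 49735. The Y box alone was common, with a match in 23 of the 39 member regions (59%) against 32.4% of all regions. When only the letters inside each listed region were read, 7 of 39 regions (17.9%) held a pair with up to 1 mismatch, against 0.644% of all regions.

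The classical class II genes encode the α and β chains of I-A (*H2-Aa*, *H2-Ab1*) and the β chain of I-E (*H2-Eb1*). All of them had an open region at the start of transcription. At *H2-Ab1* (chr17:34400154-34406363, plus strand), the region at chr17:34400061-34400278 was 218 bp wide and covered the first base, and its midpoint lay 15 bp after it. The part of this region before the first base is shown for the promoter letters it covers, with Y box matches on either strand in capitals.
H2-Ab1 open region before the first base, chr17:34400061-34400153, plus strand: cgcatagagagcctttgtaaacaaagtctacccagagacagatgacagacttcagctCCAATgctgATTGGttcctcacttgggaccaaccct

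The Y box of the *H2-Ab1* pair began 27 bp before the first base. The window of *H2-Ab1* held 4 regions, with the other three 5359 bp and 1551 bp before the first base and 2001 bp after it, in an intron. The region 1551 bp upstream, at chr17:34398468-34398738, was 271 bp wide, which was the widest of the 39. It is shown whole because it combined an X-Y pair with matches to several other motifs. The capitals mark matches to the Y box, the ISRE-like motif GAAANNGAA, and the STAT motif TTCNNNGAA on either strand.
Upstream of H2-Ab1, chr17:34398468-34398738, plus strand: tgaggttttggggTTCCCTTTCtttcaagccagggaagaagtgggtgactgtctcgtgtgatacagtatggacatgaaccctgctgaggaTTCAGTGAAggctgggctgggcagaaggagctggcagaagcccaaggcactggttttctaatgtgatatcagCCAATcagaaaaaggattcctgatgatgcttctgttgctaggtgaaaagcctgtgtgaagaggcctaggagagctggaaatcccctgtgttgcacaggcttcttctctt

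At *H2-Eb1* (chr17:34442828-34453144, plus strand), the region at chr17:34442697-34442869 was 173 bp wide, covered the first base, and had its midpoint 45 bp before it. The exact X-Y pair lay inside it, with the Y box 75 bp before the first base. A second region, 212 bp wide, was centered 917 bp upstream and held the second pair. The window held 6 regions in all, of which 2 lay in introns, 2482 bp and 6463 bp from the nearest start.

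At *H2-Aa* (chr17:34406276-34424772, minus strand), a region of 176 bp at chr17:34424831-34425006 was centered 146 bp before the first base and did not reach it. Its edge also excluded the Y box, which began 44 bp before the first base. No X core with fewer than 3 mismatches stood at the right distance from this Y box. The search used only GNAACNGAT, so that parts of an X box outside this core were not looked for. The sequence is given because the Y box sits just outside the open region, with the Y box in capitals.
H2-Aa, chr17:34424787-34424876, minus strand: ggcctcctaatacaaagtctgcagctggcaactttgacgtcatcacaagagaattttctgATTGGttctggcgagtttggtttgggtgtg

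*H2-Aa* had the most regions of the 9 genes, with 8 in its window, but 3 of them were also in the window of *H2-Ab1*. The annotated body of *H2-Aa* overlaps the 3′ end of *H2-Ab1*, so that the windows of these genes overlap. A run of 3 regions lay 4002 bp, 5985 bp, and 8456 bp upstream of *H2-Aa*, in the interval that leads to *H2-Eb1*.

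*Cd74*, on chromosome 18 (chr18:60963502-60972300, plus strand), had 7 regions in its window. With 2.43 regions per 10 kb of window, it was the densest of the 9 genes, and 2.95% of coding genes were as dense. Upstream of the first base, 4 regions were centered 150 bp, 731 bp, 1769 bp, and 8465 bp away, with widths of 224 bp, 182 bp, 176 bp, and 213 bp. The nearest of them ended before the first base. Within the gene, regions of 232 bp and 151 bp lay in introns 2020 bp and 2857 bp after the first base, and the second of these held the X-Y pair. The remaining region lay past the 3′ end, in an intron of *Tcof1*.

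The H2-DM dimer, which loads peptide, is encoded by *H2-DMa* and *H2-DMb1*. At *H2-DMb1* (chr17:34290017-34297168, plus strand), a region of 183 bp at chr17:34290013-34290195 covered the annotated first base and was centered 87 bp after it. Its exact pair lay inside the annotated transcript, with the Y box 58 bp after the first base. The RefSeq start, placed on mm9 by matching the RefSeq promoter sequence of GRCm38.p6, was at position 34290136, so that the same pair lay upstream of that start. RefSeq promoters were found for 6 of the 9 genes.

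At *H2-DMa* (chr17:34272127-34276046, plus strand), the region at chr17:34272449-34272602 was 154 bp wide and was centered 398 bp after the first base, in the first exon. It held the X-Y pair, 350 bp after the first base. RefSeq places 2 further starts of *H2-DMa* upstream, at positions 34259777 and 34262463. At the second, the nearest region was 2179 bp away. The first had the region at chr17:34259566-34259740 centered 124 bp before it, which is also beside the start of *Brd2*, a bromodomain gene on the other strand. *H2-DMa* had 4 regions in its window and *H2-DMb1* had 3. The windows shared 1 region, 57 bp from the start of *H2-DMb2*, the second β chain gene.

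The H2-DO dimer, which restrains H2-DM and is known mainly from B cells and thymic epithelium, is encoded by *H2-Oa* and *H2-Ob*. The starts of these genes differed. At *H2-Ob* (chr17:34375848-34390850, plus strand), a region of 158 bp at chr17:34375789-34375946 covered the first base, and a second region of 224 bp lay 963 bp after it, 169 bp from a later annotated start. At *H2-Oa* (chr17:34229285-34232179, plus strand), no region was listed within 1000 bp of a start. The nearest region, at chr17:34231417-34231567, was centered 2125 bp from the closest annotated start, in an exon. The promoter sequence of *H2-Oa* nonetheless held a Y box, which began 4 bp before the first base, and the best X core at the right distance had 2 mismatches. The RefSeq start lay further downstream, at position 34229324, with the nearest region 2168 bp away. With up to 2 mismatches, 18.8% of coding genes had a pair at a start. The promoter sequence of *H2-Oa* is shown with the Y box in capitals for comparison with the open promoters.
H2-Oa, chr17:34229221-34229310, plus strand: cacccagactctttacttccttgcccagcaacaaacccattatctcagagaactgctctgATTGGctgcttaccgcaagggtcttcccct

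*Ciita*, on chromosome 16 (chr16:10480237-10527657, plus strand), encodes the coactivator and is transcribed from several promoters that differ between cell types. None of its 5 annotated starts had a region within 1000 bp. The nearest region lay 4101 bp before the first base, and the other starts were 12135 to 13740 bp from it. A stretch of 49181 bp without a listed region, chr16:10476212-10525392, covered all annotated starts and most of the gene body. Of all gaps between neighboring regions, 14.3% were as long, and the median gap was 8443 bp. The next regions lay 45238 bp and 45712 bp after the first base, in an intron and in the last exon, which is 3′ UTR there. A further 2 regions in the *Ciita* window lay in introns of the neighboring gene *Dexi*. The region upstream of the gene is shown because it was the only one in the window on the side of the starts. No motif that was searched had a match inside it. In the 300 bp around its midpoint, which the motif counts used, a Y box lay beyond its edges.
Upstream of Ciita, chr16:10476061-10476211, plus strand: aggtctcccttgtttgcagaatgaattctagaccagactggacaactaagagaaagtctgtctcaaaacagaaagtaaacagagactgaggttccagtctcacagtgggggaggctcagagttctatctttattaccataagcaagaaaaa

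One of the *Dexi* intron regions is shown because it holds a pair of matches to the REV-ERB/ROR motif TAGGTCA. This motif is a core of the sites bound by the nuclear receptors deleted in the hepatocytes of this study. Letters beside the core were not searched, and binding was not measured. The matches, on the minus strand, and a Y box are in capitals.
Dexi intron in the Ciita window, chr16:10533992-10534142, plus strand: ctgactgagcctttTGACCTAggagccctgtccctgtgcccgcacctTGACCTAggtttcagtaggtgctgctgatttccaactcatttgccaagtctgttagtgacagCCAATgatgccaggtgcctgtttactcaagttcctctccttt

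Counted over the 9 genes, all had at least 1 region in the window, against 74.4% of 22271 coding genes. The number of regions per window was 8 for *H2-Aa*, 7 for *H2-Ob* and *Cd74*, 6 for *H2-Eb1*, 5 for *Ciita*, 4 for *H2-Ab1* and *H2-DMa*, and 3 for *H2-DMb1* and *H2-Oa*. The median was 5, against 2 for all coding genes. Per 10 kb of window, the median was 1.67 against 0.469, and the lowest value was 0.742 for *Ciita*. An open start, with a region midpoint within 1000 bp of any annotated start, was found for 7 of 9 genes, the exceptions being *H2-Oa* and *Ciita*, against 56.8% of coding genes. With so few genes, nothing is read from the distance between these shares. Windows overlapped within the locus, and the 47 entries in the 9 windows came from 39 regions, of which 6 were in more than 1 window.

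**Figure D2:**
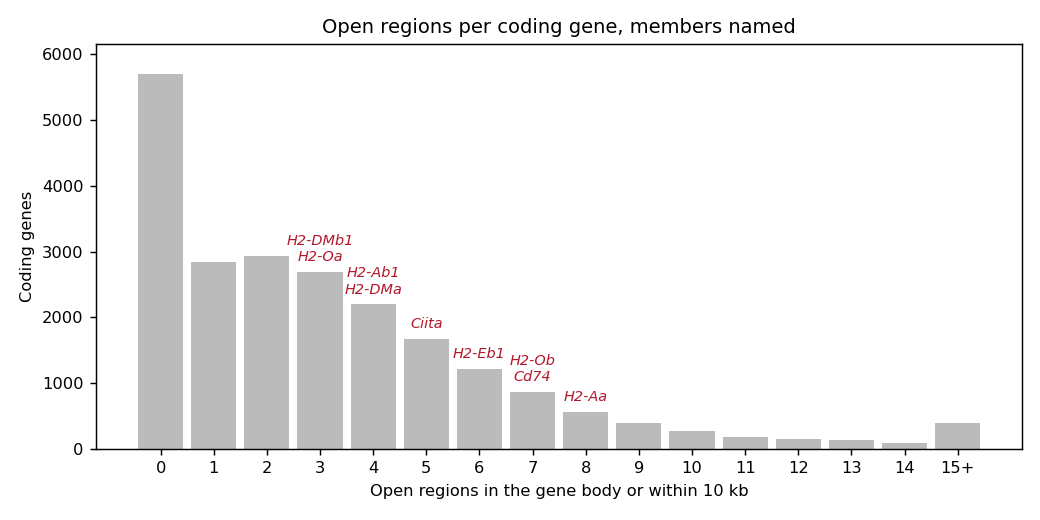
Histogram of coding genes (vertical axis) by the number of open regions in the gene body or within 10 kb (horizontal axis), with the 9 members named above their bar. The members lie between 3 and 8 regions, and 5700 coding genes have none.

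**Figure D3:**
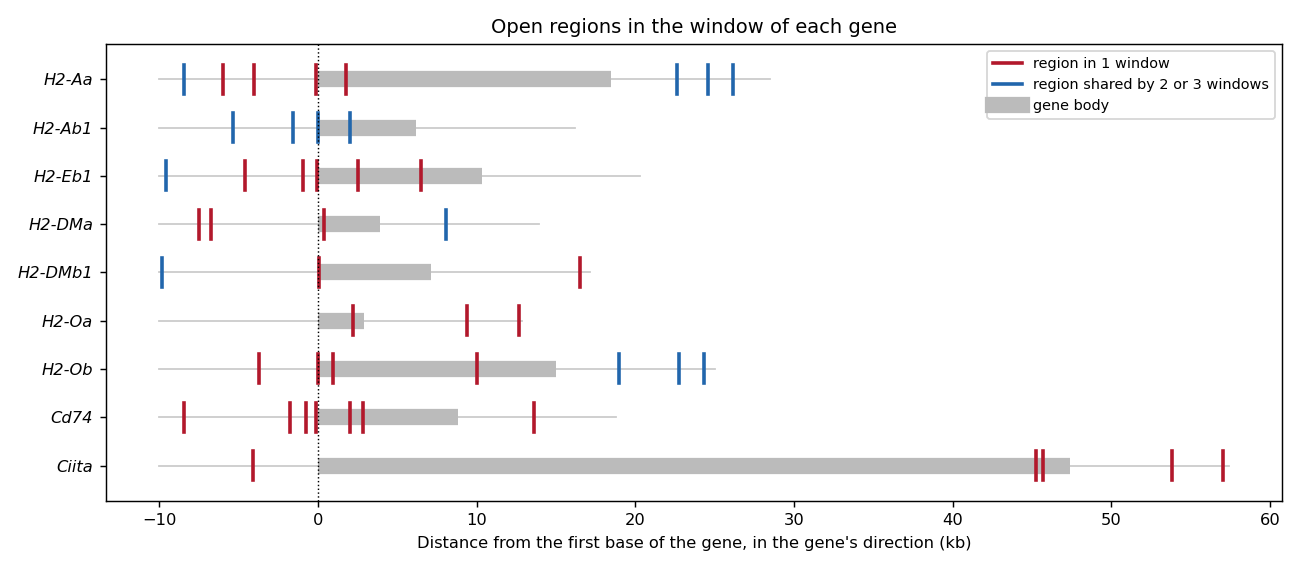
Open regions (ticks) in the window of each gene, in kb from the first base in the direction of the gene, with the gene body as a thick gray bar. No tick lies within 1 kb of 0 for *H2-Oa* and *Ciita*, the regions nearest 0 at *H2-Aa*, *H2-DMa*, and *Cd74* do not cover the first base, and blue ticks mark the 6 regions that 2 or 3 windows share.

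At the level of promoters, a pair was also sought from 250 bp before to 50 bp after each annotated start. With an exact X core, 1 of 9 genes had a pair, *H2-Eb1*, against 0.0943% of coding genes. With 1 mismatch, 3 of 9 had one (*H2-Ab1*, *H2-Eb1*, and *H2-Ob*), against 2.25%. The pairs of *H2-DMb1* and *H2-DMa* lay too far after the annotated first base to be counted. A Y box on the strand of the gene was found around the first base in 5 of 9 genes (*H2-Oa*, *H2-Ob*, *H2-Ab1*, *H2-Aa*, and *H2-Eb1*), against 22.1%. The promoters of the members were poor in CpG dinucleotides. In the 300 bp around the first base, the median ratio of observed to expected CpG was 0.162, with a range from 0 at *H2-Eb1* to 0.273 at *H2-DMa*, against a median of 0.535 over all coding genes. Low ratios were not particular to the members. Over the lists of cell type markers described below, the medians ranged from 0.0844 (Kupffer cells and macrophages) to 0.387 (dendritic cells).

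Of the 9 genes, all but *Cd74* and *Ciita* lie in 1 cluster on chromosome 17. This locus, taken from 10 kb before *H2-Oa* to 10 kb after *H2-Eb1* (chr17:34219285-34463144), spans 243860 bp and held 42 regions, of which 27 were in member windows. Its density of 17.2 regions per 100 kb compared with 3.28 on chromosome 17 and 2.61 over all chromosomes. Of 10879 tiles of the same length, 27 (0.248%) held as many regions, and the median tile held 3. The locus is also rich in genes, with 15 coding genes inside it, and 0.634% of tiles had as many. Counting only the 23 regions more than 1000 bp from a coding start, 1.7% of tiles had as many.

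The regions were spread unevenly over the locus. Between *H2-DMb1* and *H2-Ob*, an interval of 78679 bp that contains the class I peptide transporter genes *Tap1* and *Tap2* and the immunoproteasome genes *Psmb8* and *Psmb9*, there were 13 regions. Between *H2-Aa* and *H2-Eb1* there were 7 regions in 18055 bp, and between *H2-Ob* and *H2-Ab1* there were 2 in 9303 bp. Only 1 region lay in the 13970 bp between *H2-DMa* and *H2-DMb1*. The longest gap, 20725 bp from chr17:34402231 to 34422955, ran from the intron of *H2-Ab1* to the intron of *H2-Aa* and covered the convergent 3′ ends of both genes. Such a length is common, since 29.6% of all gaps between neighboring regions were as long. Of the 15 coding genes in the locus, 13 had an open start, and *H2-Oa* and *Gm15821* did not. At *H2-Eb2*, whose first base falls at the edge of the locus, the nearest region was 9711 bp from the start.

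**Figure D4:**
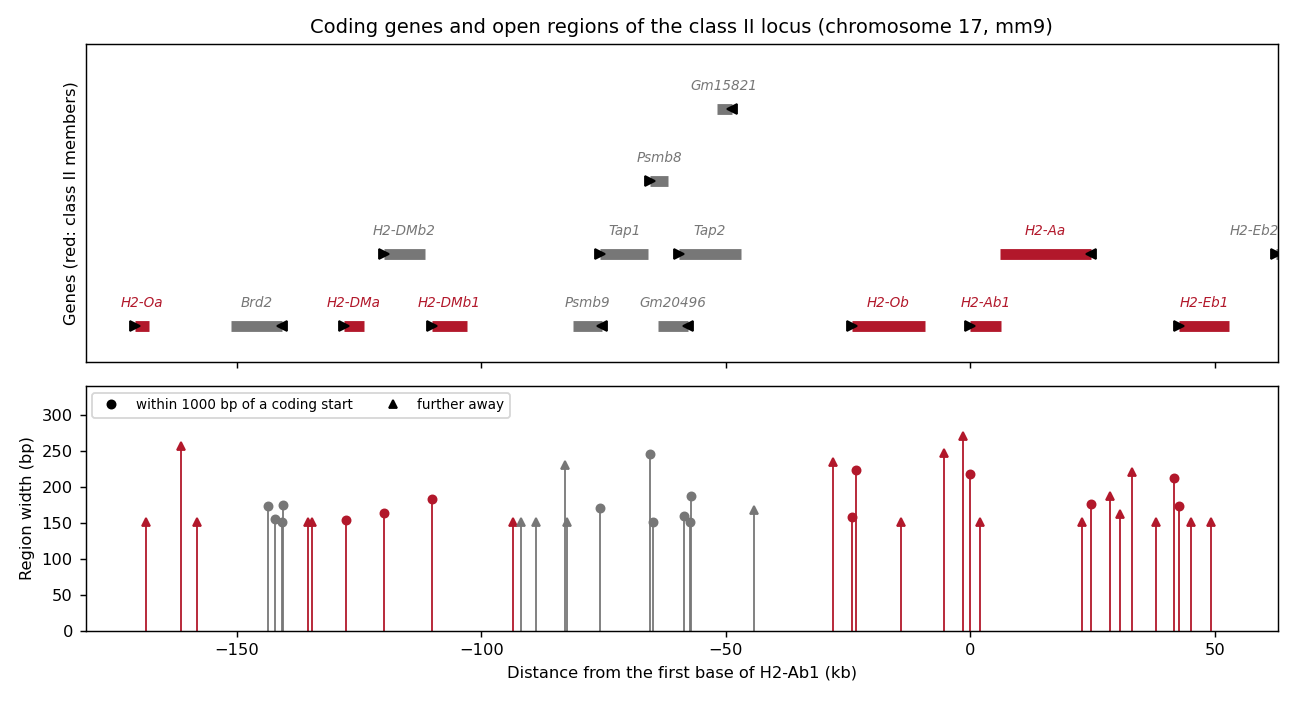
Coding genes (top, red for members, arrowheads at the first base) and open regions (bottom, height as width in bp) of the class II locus, in kb from the first base of *H2-Ab1*. Circles are regions within 1000 bp of a coding start and triangles those further away, and the gap between *H2-Ab1* and *H2-Aa* spans 20725 bp.

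Of the 39 regions, 11 lay within 1000 bp of a coding start (28.2%), against 28.3% of all regions, so that position relative to starts did not set them apart. Of the others, 15 lay between coding genes, 11 in introns, and 2 in exons. Some of these 15 lay in the annotated noncoding transcript *Gm20513*, between *H2-Aa* and *H2-Eb1*. For 31 of 39, the nearest coding start was that of a member. Widths ranged from 151 bp to 271 bp, with a median of 166 bp, against a median of 160 bp for all regions. The commonest width of 151 bp accounted for 15 of the 39 (38.5%) and for 46.5% of all regions. Widths come from the peak caller and are no measure of accessibility.

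Other motifs of myeloid and inflammatory regulation were counted in the same 300 bp on both strands. The composite ETS-IRF motif GGAANNGAA, bound by PU.1 with IRF4 or IRF8, had a match in 8 of 39 regions (20.5%), against 9.24% of all regions. The PU.1 motif GAGGAAG matched in 6 (15.4%), near the 17.1% of all regions. The motifs of STAT factors (TTCNNNGAA, 4 regions, 10.3% against 8.17%) and of interferon-responsive elements (GAAANNGAA, 3 regions, 7.69% against 8.51%) were near the share of all regions as well. AP-1 (TGANTCA) matched in 3 regions (7.69% against 12.1%), and the E-box (CACGTG) in 1 region (2.56% against 8.43%). The REV-ERB/ROR motif matched in 3 regions (7.69% against 3.7%), of which 2 were in the *Ciita* window and 1 beyond the 3′ end of *H2-DMb1*. No member region matched the sterol response element TCACNCCAC, which 1.47% of all regions did. The ETS-IRF and interferon motifs can overlap in the same letters. These counts rest on 0 to 8 regions, and a match is a description of letters, not of binding.

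**Figure D5:**
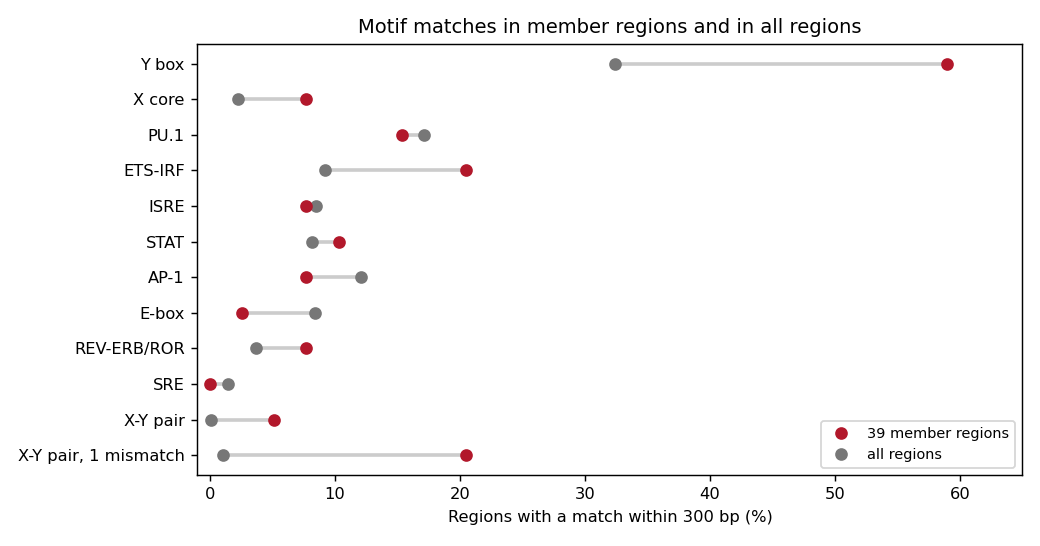
Share of regions (%) with a motif match in 300 bp around the midpoint, for the 39 member regions (red) and for all regions (gray). The Y box and the X-Y pair with 1 mismatch lie furthest to the right of their background, at 59% against 32.4% and 20.5% against 1.05%.

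Genes that act on or with class II molecules were examined by the same measure. All 13 listed factors and regulators had an open start, among them *Rfx5*, *Rfxap*, and *Rfxank* of the RFX complex, *Nfya*, *Nfyb*, and *Nfyc* of NF-Y, and *Creb1*, against 56.8% of all coding genes. Their windows held 2 (*Nfya*) to 12 (*Irf1*) regions, with a median of 4 against 2 for all coding genes. *Sfpi1*, which encodes PU.1, had 7. The median ratio of observed to expected CpG was 0.85 for these 13 genes, against 0.535 for all coding genes and 0.162 for the members. Whether CpG content accounts for the open starts was not tested. Against the same background of 56.8%, 8 of 9 genes of peptide processing and co-stimulation had an open start, including *Ctss*, the protease that degrades CD74, and *Ifi30*, a lysosomal thiol reductase. The exception was *Cd80*, at 1578 bp. All 8 annotated genes of class I presentation did as well. Their windows held 31 regions, with a median of 5.5 per window and 2.06 per 10 kb. For the genes of peptide processing and co-stimulation, these medians were 6 and 1.11, and for the class II members 5 and 1.67. Windows with several regions were thus not particular to the members. No window of the class I genes overlaps a window of the class II genes, so that no region could be shared.

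Marker genes of cell types were examined by the same measure. Of 10 Kupffer cell and macrophage markers, 6 had an open start (*Emr1*, *Clec4f*, *Timd4*, *Cd5l*, *Cd68*, and *C1qa*), and *Vsig4*, *Marco*, *Csf1r*, and *Lyz2* did not. The counts were 9 of 10 for sinusoidal endothelium, 9 of 10 for hepatocytes, 5 of 10 for T cells, and 3 of 10 for each of B cells, dendritic cells, and neurons and muscle. The starts of *Ms4a1*, *Cd79a*, *Cd79b*, and *Cd22*, which define B cells, were not open, while those of the B cell genes *Pax5*, *Ebf1*, and *Cr2* were, with regions 595 bp, 83 bp, and 36 bp away. Among the dendritic cell genes, the starts of *Xcr1*, *Flt3*, *Clec9a*, and *Siglech* were not open, while those of *Zbtb46*, *Batf3*, and *Cd83* were, with regions 130 bp, 263 bp, and 33 bp away. The background was 56.8% of all coding genes, so that the macrophage share of 60% did not stand out. The shares of sinusoidal endothelium and hepatocytes were higher, at 90% each. Open starts at these markers therefore do not single out macrophages. Class II genes are also expressed by some cells other than macrophages, and the part of such cells in the member regions was not tested.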

How the data were processed

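The authors made 18 ATAC-Seq libraries of LMs in 6 groups (3 genotypes at ZT10 and ZT22). Per the authors' methods, reads were trimmed and aligned to mm9 with Bowtie in the Kundaje laboratory's pipeline, aligned reads of biological replicates were merged, and peaks were called, and HOMER was used for read counts. How peaks were called, at which threshold, and how they were brought into 1 list are not given in the sources used here. The deposited file lists the positions of 69499 regions in 3 columns and no other value of any sample, so that neither depth nor precision can be given. Starts are printed counted from 1.

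Regions were assigned by midpoint to genes of GENCODE vM1 on NCBIM37, within whose chromosome lengths all regions lay. Sequence was read from that assembly, and the 69362 regions on chromosomes 1 to 19, X, and Y were searched for motifs. Of several annotation records of 1 gene (*Ciita* has 2), the union was used. RefSeq promoters of GRCm38.p6 were matched exactly into mm9, for start positions only. Shares over all coding genes or all regions are the background, and no test was run. The 9 genes, the other gene lists, and the motifs were chosen with earlier results of these data known. All 9 members were described, other lists by counts. Python 3.11.15, NumPy 2.4.6, pysam 0.24.0, and matplotlib 3.10.9 were used, and the window and motif searches were tested on simulated data. Alternatives changed the window, the distance to a start, the minimum width, and the motif search.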

Additional observations from a re-analysis of the deposited data

How the results depend on the processing

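The list has no values, so results could change only with the rule that assigns regions and with the motif search. The 39 regions became 15 with the gene body alone and 20 with 1 kb around it, while windows of 5 kb and 20 kb, any overlap, and joining regions within 500 bp gave 29 to 56. Keeping only regions of at least 200 bp left 12 of them, 4 genes with an open start instead of 7, and 10 regions in the locus instead of 42. Requiring a midpoint within 200 bp of a start left 6 genes, without *H2-DMa*. The number of genes with an X-Y pair at a start rose from 1 to 2 with a window of 500 bp before to 100 bp after (adding *H2-DMb1*), to 3 with 1 mismatch, and to 5 with 2 mismatches, a setting added after the data had been seen. The share of all coding genes with a pair moved with it, from 0.0943% to 0.18%, 2.25%, and 18.8%, and to 0.0539% for 150 bp before a start, 0.198% for a gap of 10 to 60 bp, and 0.0584% on the gene's own strand. The median width moved by less than the SD of the widths, and 2 regions held an exact pair under each setting run. No paired analysis was possible because positions were given without a value for any library, and leaving out a replicate was not possible for the same reason.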

Other observations

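Pairs of X core and Y box were found at other genes too. Over all coding genes, 21 had an exact pair at a start, and 14 of them (66.7%) had an open start. *H2-Eb1* was the only one of the 9 class II genes among the 21. *H2-Eb2*, the neighboring class II gene that is not a member, also had an exact pair at its start, but the nearest region was 9711 bp away. Of 502 genes with a pair that allows 1 mismatch, 368 (73.3%) had an open start, against 56.8% of all coding genes.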
